A study of Arabidopsis thaliana with 21 samples.

Results

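The genes that encode the core histones H2A, H2B, H3 and H4 were followed in Arabidopsis thaliana. The group was a list of 40 loci: 8 H4 genes, 5 genes for the replication-type histone H3.1, 3 genes for the replacement histone H3.3, 11 H2B genes (HTB1 to HTB11) and 13 H2A genes (HTA1 to HTA13). The loci were listed by name, and a gene was kept if its deposited value averaged at least 1 over all 21 libraries. Of the 40 genes, 39 were kept, of 23290 genes that passed the same filter and 32548 genes in the table. HTB10 was under the filter, listed close to 0 in all 21 libraries, and was not tested. It shares 100% of its stretches of 100 bases with HTA12, which covers it on the opposite strand. Whether HTB10 is expressed therefore cannot be read from these values.

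RNA was sequenced from 30-day-old soil-grown plants, whose tissue the labels call seedlings. There were 7 genotypes with 3 libraries each: wild-type Col-0, the single mutants gcn5, ada2b-c, ada2a and spc, and 2 double mutants, ada2b-cada2a and ada2b-cspc. GCN5 is a histone acetyltransferase, and ADA2A and ADA2B are related adaptor proteins that bind it. By their labels, 3 genotypes carry the ada2b-c mutation. The labels used here give no allele type and no locus for spc, and they do not tie the libraries to separate plants or cultures. The p-values therefore reflect the spread among these libraries alone, which may be technical.

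Core histones form the protein centre of the nucleosome, around which DNA is wound. H3.1 genes are known to be expressed mainly during S phase, when new DNA is packed, while H3.3 genes are expressed throughout the cell cycle and H3.3 replaces other H3 in transcribed genes. Among the H2A variants, H2A.Z is placed by the SWR1 complex and is known for a part in genes that respond to the environment, H2A.W lies in heterochromatin, and H2A.X is phosphorylated at DNA breaks. GCN5 and its adaptors acetylate the tails of H3, so they act on the proteins that the H3 genes encode.

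The promoters of plant histone genes are known for an octamer, CGCGGATC, and a hexamer, ACGTCA. Both were searched on both strands in the 250 bases before each annotated gene start (RefSeq, TAIR10.1 genome). The letters of the octamer and the hexamer do not overlap each other in the promoters printed here. The octamer was found in 9 of the 40 histone promoters (22.5%) and in 37 of 27561 promoters of protein-coding genes (0.134%). It was in 3 of 5 H3.1 promoters, 2 of 8 H4 promoters, 1 of 3 H3.3 promoters, 2 of the 4 canonical H2A promoters, 1 of 3 H2A.W promoters and 0 of 11 H2B promoters. The hexamer was found in 11 histone promoters (27.5%), of which 8 belong to the 11 H2B genes (72.7%), against 2114 of all protein-coding promoters (7.67%). A match is a description of these letters and not a measured binding site.

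The promoters of 4 genes are shown, 5′ to 3′ along the gene, with octamers and hexamers in capitals. HTR2 (an H3.1 gene) and HTA10 (a canonical H2A gene) carry 2 octamers each. The 2 of HTR2 begin 90 and 19 bases before the gene start. Those of HTA10 begin 74 and 10 bases before it, the nearer one on the opposite strand and so read as GATCCGCG. HTB3 and HTB5 (H2B genes) had the first and the third largest falls in gcn5, and their hexamers begin 50 and 48 bases before the start. HTA12, which had the second largest fall, has no hexamer in its window. A link between the hexamer and these falls was not tested. The windows are chr1:2972335-2972584 on the minus strand for HTR2, chr1:18926561-18926810 on the plus strand for HTA10, chr2:12326558-12326807 on the plus strand for HTB3 and chr2:15736477-15736726 on the plus strand for HTB5.
HTR2: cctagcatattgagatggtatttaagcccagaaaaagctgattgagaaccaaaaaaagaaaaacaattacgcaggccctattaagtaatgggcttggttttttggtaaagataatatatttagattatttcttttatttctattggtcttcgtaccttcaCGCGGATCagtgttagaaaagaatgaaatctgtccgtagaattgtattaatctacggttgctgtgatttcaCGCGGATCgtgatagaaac
HTA10: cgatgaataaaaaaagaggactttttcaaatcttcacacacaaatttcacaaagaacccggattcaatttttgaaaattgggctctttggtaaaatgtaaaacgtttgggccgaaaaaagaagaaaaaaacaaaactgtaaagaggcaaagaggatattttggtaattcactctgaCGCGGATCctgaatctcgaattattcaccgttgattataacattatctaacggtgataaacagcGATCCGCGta
HTB3: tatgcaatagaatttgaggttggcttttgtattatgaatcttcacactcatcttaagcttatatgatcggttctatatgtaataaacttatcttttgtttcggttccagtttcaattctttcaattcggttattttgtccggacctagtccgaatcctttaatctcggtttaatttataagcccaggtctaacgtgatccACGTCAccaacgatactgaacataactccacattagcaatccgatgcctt
HTB5: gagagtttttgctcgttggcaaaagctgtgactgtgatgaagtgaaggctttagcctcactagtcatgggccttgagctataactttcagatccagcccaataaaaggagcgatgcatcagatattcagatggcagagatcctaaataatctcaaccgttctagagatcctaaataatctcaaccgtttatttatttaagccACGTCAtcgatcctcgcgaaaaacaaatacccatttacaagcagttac

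The deposited values are a signal that is not a whole-number count, so the sequencing depth behind it cannot be read and intervals for counting error are not available. Column totals ran from 27.4 to 58.7, in units of 1e+06, and differed by genotype. They were 27.4 to 27.5 in ada2b-c, 28.6 to 31.7 in ada2b-cada2a and 28.4 to 28.9 in ada2b-cspc. In gcn5 they were 31.9 to 36.2 and in Col-0 39.3 to 40.4. In ada2a they were 44.0 to 56.6 and in spc 41.6 to 58.7. The libraries differed by a trend with transcript length that followed genotype. Its slope, in log2 units per doubling of length, was -0.40 ± 0.21 in Col-0, -0.15 ± 0.44 in gcn5, -1.0 ± 0.25 in ada2a and -1.11 ± 0.37 in spc. It was 1.01 ± 0.05 in ada2b-c, and 0.79 ± 0.13 and 0.86 ± 0.08 in its double mutants with ada2a and with spc (SD, n = 3 in each genotype). Histone transcripts are short, 522 to 1434 bases, so this trend moves with every histone difference between genotypes of unlike slope. Each comparison was therefore made in 4 fits: on the values as deposited, after a correction for transcript length and GC content, with each library's slope as a covariate, and with every library scaled to the same total. As a check of the labels, ADA2A fell by 4.11 in ada2b-cada2a, while its change in ada2a was -1.18 (adjusted p = 0.0539 by limma), and the change of GCN5 in gcn5 was -0.43 (adjusted p = 0.123). ADA2B was not called in ada2b-c (0.32, adjusted p = 0.489), in ada2b-cada2a (-0.54, adjusted p = 0.238) or with spc added (-0.19, adjusted p = 0.684). It was called lower in spc (-2.03, adjusted p = 0.00068) and in ada2a (-1.14, adjusted p = 0.0277). Genotype names are used as the labels give them.

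In the text, a change is a log2 difference of value + 1 with its SE, and means are given ± SD over 3 libraries. A gene is called when limma's p, adjusted by Benjamini and Hochberg over all genes tested, is under 0.05. In bulk RNA, fewer cells of a type and less RNA per cell cannot be told apart.

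Per kilobase of transcript, the signal in Col-0 spanned several orders of magnitude. The H3.3 gene HTR5 was highest at 16581 ± 1069 signal per kb, followed by HTR4 (H3.3) at 13338 ± 1526 and the H2A.Z gene HTA9 at 10010 ± 862. The H3.3 gene HTR8 stood at 8256 ± 1063, the H4 gene AT5G59690 at 7608 ± 398 and HTB11 at 7268 ± 245, neighbours whose ranges of mean ± SD overlap. Among the H3.1 genes HTR1 was highest at 6197 ± 373 per kb and HTR3 lowest at 512 ± 76.8. HTR3 shares 31.2% of its stretches of 100 bases with AT3G27380, which overlaps it. At the low end stood HTA12 (H2A.W, 515 ± 80.9), HTA8 (H2A.Z, 504 ± 82.3), HTB6 (220 ± 44.9), HTB7 (129 ± 9.21) and HTB8, a variant known from seeds and sperm, at 1.55 ± 1.299.

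The member of highest mean signal per kb in each class shows how the libraries were ordered. These are deposited signals, not scaled to equal totals, and carry both the differences in total and the length trend. HTR5 had signals of 20015, 21335 and 22770 in the Col-0 libraries and 12481, 14746 and 10323 in those of ada2b-c. In ada2a it had 28328, 36810 and 52295, in spc 24670, 57749 and 33253, and in gcn5 14234, 17170 and 30182. In ada2b-cada2a the values were 14711, 12622 and 14588, and in ada2b-cspc 13947, 14936 and 13994. Libraries with ada2b-c were thus all below Col-0, those of ada2a and spc all above it, and gcn5 lay on both sides.

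The H4 gene AT5G59690 followed the same order. It had signals of 5329, 5801 and 5875 in Col-0 and 1327, 1620 and 1459 in ada2b-c, with 2133, 2072 and 1746 in ada2b-cada2a and 1829, 1863 and 1565 in ada2b-cspc. In ada2a it reached 8349, 11838 and 14479, in spc 7588, 18418 and 10986, and in gcn5 2509, 3255 and 5413. The H2A.Z gene HTA9 had 7627, 8619 and 9040 in Col-0, 4331, 4747 and 4708 in ada2b-c, 12165, 21120 and 25144 in ada2a and 11506, 30059 and 15925 in spc. Its gcn5 libraries held 6207, 8374 and 13488, those of ada2b-cada2a 5730, 5246 and 5219 and those of ada2b-cspc 5574, 5668 and 4930. For both genes ada2b-c and the double mutants lay below every Col-0 library, and replicate 2 of spc and replicate 3 of ada2a were the highest of their genotypes. AT1G52750 overlaps HTA9 on the opposite strand, and whether the libraries keep strand is not known.

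For H2B, HTB9 had signals of 3448, 4181 and 5082 in Col-0, and 1734, 1867 and 1943 in ada2b-c. The double mutant ada2b-cada2a had 2488, 2203 and 2414, and ada2b-cspc had 2209, 2115 and 1659. Its values in ada2a were 6221, 8948 and 10225, in spc 5654, 11662 and 8260 and in gcn5 2792, 3222 and 5144. Only gcn5 overlapped Col-0 for this gene. AT3G07315 and AT3G45970 overlap HTB9 on the opposite strand, and 23.9% of its stretches of 100 bases are shared with AT3G07315. No source used here says whether the libraries keep strand, so reads there could come from either gene. The canonical H2A gene HTA10 had 4580, 4326 and 4929 in Col-0, and 1188, 1405 and 1420 in ada2b-c. The double mutant ada2b-cada2a had 1817, 1466 and 1636, and ada2b-cspc had 1675, 1539 and 1454. In ada2a it had 6746, 9679 and 13167, in spc 5933, 15266 and 8182, and in gcn5 2466, 3526 and 5510. As for HTB9, only gcn5 overlapped Col-0.

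The H2A.X gene HTA5 had signals of 4174, 4972 and 6211 in Col-0, and 2583, 2757 and 2707 in ada2b-c. The double mutant ada2b-cada2a had 3021, 2938 and 3206, and ada2b-cspc had 2976, 2980 and 2516. It had 7496, 12045 and 14298 in ada2a, 7018, 16657 and 9736 in spc and 4064, 5374 and 8252 in gcn5. Here too gcn5 spread across the Col-0 range. The H2A.W gene HTA7 had 2417, 2722 and 3025 in Col-0, 1074, 1204 and 1145 in ada2b-c, 1182, 1060 and 1211 in ada2b-cada2a, 1155, 1265 and 1081 in ada2b-cspc, 3502, 4818 and 6133 in ada2a, 3104, 6620 and 3927 in spc and 1328, 1768 and 2860 in gcn5. The H3.1 gene HTR1 had 4243, 4426 and 4773 in Col-0, 1302, 1365 and 1437 in ada2b-c, 1973, 1880 and 1865 in ada2b-cada2a, 1830, 1681 and 1367 in ada2b-cspc, 6277, 5937 and 7439 in ada2a, 6260, 8723 and 7622 in spc and 3149, 3380 and 4459 in gcn5. Both lay below Col-0 in every library with ada2b-c and above it in every library of ada2a and spc.

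**Figure D1:**
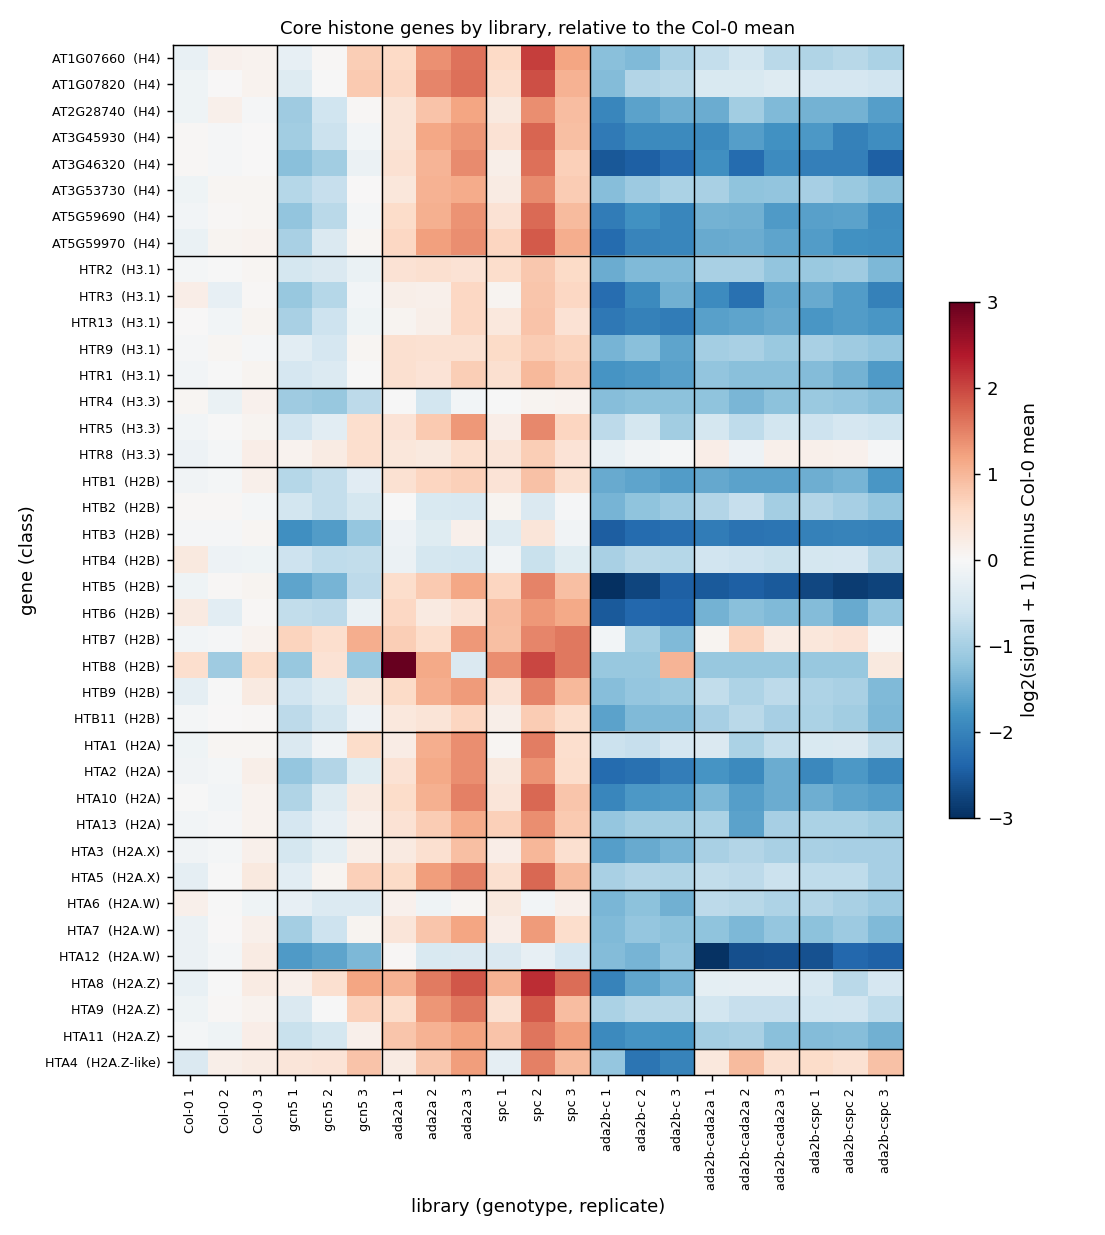
Heat map of the 39 tested histone genes (rows, by class) in the 21 libraries (columns, by genotype), coloured by log2(value + 1) minus the gene's mean over the Col-0 libraries, with the colour scale ending at 3 in each direction. Columns of ada2b-c and both double mutants are mostly below Col-0, those of ada2a and spc mostly above, and HTA4 and HTA12 depart from their neighbours in the double mutants.

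In gcn5 a subset of H2B genes, the H3.3 gene HTR4 and the H2A.W gene HTA12 fell, while most histone genes were not called. Of 39 genes, 12 were called lower and 0 higher, with a median change of -0.45, against 18.7% of all genes called lower and 15.6% called higher and a median of 0 over all genes. The 12 were 6 of 10 H2B genes, 2 of 5 H3.1 genes and 1 gene each of H4, H3.3, canonical H2A and H2A.W. None of the 3 H2A.Z genes or the 2 H2A.X genes was called.

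HTB3 had the largest fall. Its signal was 4178, 4184 and 4482 in the Col-0 libraries and 1199, 1339 and 1907 in those of gcn5. The groups did not overlap, and the change was -1.56 ± 0.19 (limma, adjusted p = 2.04e-06). HTA12 stood at 643, 703 and 867 in Col-0 and at 224, 246 and 289 in gcn5. Every gcn5 library was below every Col-0 library, with a change of -1.54 ± 0.20 (adjusted p = 4.65e-06).

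HTB5 had signals of 2388, 2658 and 2767 in Col-0 and 872, 987 and 1511 in gcn5, and fell by 1.25 (adjusted p = 0.000247). HTR4 encodes the same H3.3 protein class as HTR5 and HTR8. It had 14429, 12023 and 15002 in Col-0 and 6620, 6254 and 8000 in gcn5, a change of -0.99 ± 0.15 (adjusted p = 2.82e-05). The other H3.3 genes did not follow it: HTR5 changed by -0.13 (adjusted p = 0.752) and HTR8 by 0.29 (adjusted p = 0.151), with HTR8 at 6037, 6502 and 7721 in Col-0 and 7273, 7948 and 9539 in gcn5. HTB5, HTR4, HTR5, HTR8 and other genes outside the rule for named genes were chosen after their values were seen.

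The smaller called falls were those of HTA2 (-0.80 ± 0.26, adjusted p = 0.021), AT3G46320 (-0.82), HTB4 (-0.70), HTB1 (-0.64), HTB2 (-0.60), HTR13 (-0.58), HTB11 (-0.50) and HTR2 (-0.39). The call of HTA2 was lost on leaving out Col-0 replicate 3 (adjusted p = 0.0789), gcn5 replicate 1 (0.102) or gcn5 replicate 2 (0.0674), and that of the H4 gene AT3G46320 (adjusted p = 0.0483) did not pass without any 1 of 5 of the 6 libraries. The number called lower was 23 without gcn5 replicate 3, the library of gcn5 with the steepest length slope (-0.64), and 7 without gcn5 replicate 1 or replicate 2.

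After the length and GC correction 13 histone genes were called lower and 5 higher in gcn5, against 20.5% and 21.2% of all genes, with 10 genes called lower in both fits. With equal totals 5 were lower and 3 higher, against 12.8% and 21.1% of all genes, and this scaling moved the median of all genes by 0.22. HTB3, HTA12, HTB5, HTR4 and HTA2 were called lower in all 4 fits, 5 of 39 genes, as were 12.5% of all genes. The 5 genes called higher after the correction were HTB7 (0.89, adjusted p = 0.022), HTA4 (0.76, adjusted p = 0.0245), the H2A.Z gene HTA8 (0.63, adjusted p = 0.0146), HTA5 (0.45, adjusted p = 0.026) and HTR8 (0.33, adjusted p = 0.0352). On the values as deposited none of them was called, and without gcn5 replicate 1 HTA8 was (0.84, adjusted p = 0.0466).

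**Figure D2:**
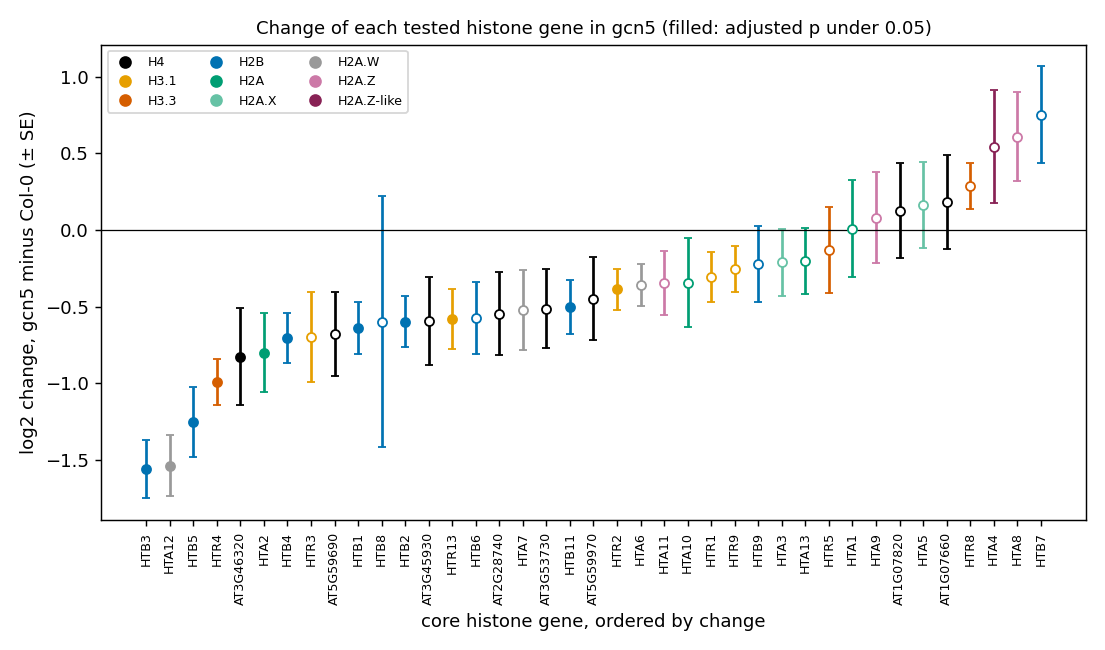
Change in gcn5 against Col-0 on the values as deposited (y axis, log2, with bars of ± SE of the limma fit, 3 libraries a genotype) for each of the 39 tested histone genes, ordered by change and coloured by class, with filled points for called genes. HTB3 (-1.56) and HTA12 (-1.54) lie lowest, and no gene above 0 is filled.

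Genes of replication, of mitosis and of tissues were also compared in gcn5. Of 22 genes for S phase and DNA replication 2 were called lower in gcn5 and 0 higher, beside 18.7% and 15.6% of all genes. The 2 were PCNA2, a clamp of the replication fork, lower by 0.57, and TSO2, a ribonucleotide reductase subunit, lower by 0.42. After the correction 0 were lower and 3 higher, beside 20.5% and 21.2% of all genes. Of the 4 mitosis markers 0 were called in gcn5, and their summed signal was 1228 to 1506 against 1317 to 1612 in Col-0. The linker histone H1.3 fell by 1.68 (adjusted p = 1.2e-06), from 749 ± 77.9 to 238 ± 67.8, and H1.2 by 0.80. All 4 leaf markers were called lower, with a median change of -1.10, and 2 of 5 flower markers were, with a summed signal of 363 to 582 against 809 to 1051. The part of these tissue markers in the histone differences was not tested.

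In ada2b-c nearly all histone genes were lower than in Col-0 on the values as deposited. Of 39 genes 36 were called lower and 0 higher, with a median change of -1.41, against 33.6% of all genes called lower, 32.4% called higher and a median of -0.06. The falls covered all 8 H4 genes (median -1.81), all 5 H3.1 genes (-1.71), 9 of 10 H2B genes (-1.33), all 3 H2A.Z genes (-1.64), all 3 H2A.W genes (-1.29), both H2A.X genes and 2 of 3 H3.3 genes. The 3 genes not called were HTA1 (-0.62, adjusted p = 0.0909), HTR8 (-0.13, adjusted p = 0.461) and HTB8.

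The slope of ada2b-c is far from that of Col-0, and the correction changed the picture. It left 19 histone genes lower and 3 higher, with a median of -0.35, against 28.7% and 35.7% of all genes. All 19 were also lower on the values as deposited. Of the H2A.X genes after the correction, every ada2b-c library was above every Col-0 library for HTA5 and below for HTA3. Of the H2A.W genes, HTA6 and HTA7 overlapped Col-0 there and HTA12 did not. Genes called lower in all 4 fits numbered 10 of 39, beside 12.1% of all genes: the H3.1 genes HTR1, HTR2, HTR9 and HTR13, the H2B genes HTB1, HTB5 and HTB6, and HTR4, HTA11 and HTA12.

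HTB5 had the largest fall in ada2b-c. Its signal was 306, 387 and 478 in ada2b-c, against 2388 to 2767 in Col-0. The groups were far apart, and the change was -2.76 ± 0.23 (limma, adjusted p = 2.77e-09) and -1.44 after the correction (adjusted p = 3.48e-09). The H4 gene AT3G46320 had 1249, 1191 and 1241 in Col-0 and 211, 225 and 249 in ada2b-c. It changed by -2.42 ± 0.31 (adjusted p = 1.16e-06), by -1.27 once length and GC were corrected and by -0.32 with the covariate (adjusted p = 0.43). This gene and AT3G45930 share part of their sequence (12.1% and 11.1% of stretches of 100 bases), so reads could be split between them.

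Of the H3.1 genes, HTR13 stood at 369 ± 15.4 in ada2b-c and 1570 ± 90.7 in Col-0, a change of -2.09 ± 0.20 (adjusted p = 1.5e-08) and of -1.17 after the correction. HTR1 stood at 1368 ± 67.5 against 4481 ± 269, a change of -1.71 ± 0.16 (adjusted p = 1.59e-08) and of -0.80 after it. The H3.3 genes stood apart from them. HTR8, with signals of 5727, 6210 and 6484 in ada2b-c against 6037 to 7721 in Col-0, overlapped between the groups and was called higher after the correction (0.66, adjusted p = 6.67e-05). HTR5 changed by -0.79 (adjusted p = 0.0187), a call lost on leaving out Col-0 replicate 3 (adjusted p = 0.0549) or ada2b-c replicate 3 (0.0808), and stood at 0.23 after the correction. With the slope covariate it was called higher (1.095, adjusted p = 0.0022).

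Among H2A.Z genes HTA11 went from 1522 ± 180 to 430 ± 22.4 (-1.82 ± 0.21, adjusted p = 2.16e-07, and -1.07 after the correction). HTA8 went from 443 ± 72.4 to 142 ± 30.0 (-1.64, adjusted p = 4.77e-05, -0.88 once corrected and 0.16 with the covariate). HTA9, the most abundant of them, changed by -0.87 and by -0.04 after the correction (adjusted p = 0.845). The H4 gene AT2G28740 was called in opposite directions: -1.67 on the values as deposited (adjusted p = 1.97e-05) and 0.56 after the correction (adjusted p = 0.0179).

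Genes of DNA replication and genes that act on histones were called in both directions. Of all genes, 32.4% were called higher in ada2b-c and 33.6% lower, and after the correction 35.7% and 28.7%. Of 22 S-phase and replication genes, 12 were called higher in ada2b-c and 7 lower. The largest rises were those of ICU2, a subunit of the replicative polymerase alpha (3.52, and -0.03 after the correction), and of the helicase subunits MCM5 (2.12, and 0.76 after it), MCM2 (1.98) and MCM4 (1.96). After the correction 6 were higher and 6 lower. Of 16 histone chaperones 10 were higher and 5 lower, and after the correction 7 and 2, with ATRX at 4.51 and 1.40, SPT16 at 3.38 and 0.74 and SSRP1, its partner in the FACT complex, at 2.53 ± 0.37 (adjusted p = 4.68e-06) and 1.77. The H3.3 chaperone gene HIRA stood at 1.81 and, after the correction, at -0.69. PIE1, the ATPase of SWR1, which places H2A.Z, rose by 4.68, and by 0.73 after the correction, and its partner ARP6 by 0.52. CENH3 (HTR12), the centromeric H3, changed by -1.73, and by -0.999 after the correction.

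Tissue markers differed in the same libraries, and the shares of all genes called are those given above. The 4 mitosis markers summed to 802 to 903 in ada2b-c against 1317 to 1612 in Col-0, with 2 of 4 called lower, CDKB1;1 at -1.63 (-1.01 after the correction) and KNOLLE at -0.99. CDKB2;1 stood at -0.03 (adjusted p = 0.92) and CYCB1;1 at -0.21 (adjusted p = 0.575). The 5 flower markers summed to 76.1 to 91.5 against 809 to 1051, all 5 were called lower with a median change of -3.99, and AG was listed at 0. The 3 shoot meristem markers summed to 167 to 191 against 753 to 1020, nearly all of it from STM, the 1 of 3 called lower (-2.39). Of the 4 leaf markers 3 were called lower, with a median change of -1.96. Of 4 pollen and sperm markers 1 averaged above 1 in Col-0. Their part in the fall of the histone genes was not tested.

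In ada2a and spc most histone genes were higher than in Col-0 on the values as deposited. In ada2a 25 of 39 were called higher and 1 lower, with a median of 0.82, against 19.8% and 19.9% of all genes and a median of -0.02. In spc 29 were higher and 0 lower, with a median of 0.76, against 21.7% and 25.7% of all genes and a median of -0.06. In both, all 8 H4 genes and all 3 H2A.Z genes were called higher, with median changes of 0.97 and 1.15 in ada2a and 1.03 and 1.23 in spc. Both mutants share the Col-0 libraries, so their values are not independent.

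Both mutants have lower slopes than Col-0, and fewer histone genes were called higher in each of the other 3 fits. After the correction, ada2a had 8 histone genes higher and 9 lower, against 15.9% and 17.2% of all genes, and spc had 9 higher and 5 lower, against 18.1% and 19.1%. Among the 5 H3.1 genes in ada2a, 3 were called higher on the values as deposited and 3 lower after the correction, and HTR1 is the 1 gene in both counts. With equal totals ada2a had 12 higher and 5 lower, against 11.3% and 30.8% of all genes, whose median this scaling moved by -0.37. The counts in spc under that scaling were 18 and 2, against 15% and 31.8%, and the median moved by -0.33. HTA8 and HTA11, both H2A.Z genes, were called higher in all 4 fits, 2 of 39 genes in each mutant, beside 3.67% of all genes in ada2a and 3.98% in spc.

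HTA8 had the largest called rise in both. Its signal was 374, 438 and 518 in Col-0, 907, 1304 and 1593 in ada2a and 907, 2049 and 1407 in spc. Every library of either mutant was above every Col-0 library. The change was 1.49 ± 0.29 in ada2a (limma, adjusted p = 0.00115) and 1.65 ± 0.29 in spc (adjusted p = 0.000335), and after the correction 0.85 (adjusted p = 0.00311) and 1.13 (adjusted p = 0.000224). HTA11 had 1449, 1391 and 1727 in Col-0, 2678, 3107 and 3508 in ada2a and 2729, 4600 and 3615 in spc. It rose by 1.02 ± 0.21 (adjusted p = 0.00154) and 1.23 ± 0.21 (adjusted p = 0.000231), and by 0.42 (adjusted p = 0.0237) and 0.75 after the correction.

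The second largest called rise in ada2a was that of the H4 gene AT1G07820. It had signals of 2597, 2895 and 3079 in Col-0 and 4369, 7826 and 8892 in ada2a. The groups did not overlap, and the change was 1.24 ± 0.31 (adjusted p = 0.00516), 0.83 once length and GC were corrected and 0.37 with the covariate (adjusted p = 0.191). The second largest called rise in spc was that of HTB7, a low-level H2B gene. It had 89.7, 93.4 and 103 in Col-0 and 179, 263 and 289 in spc. It rose by 1.32 ± 0.32 (adjusted p = 0.00292), and its change after the correction was 0.64 (adjusted p = 0.102). HTB8, near the filter, had changes of 1.33 in ada2a (adjusted p = 0.202) and 1.67 in spc (adjusted p = 0.0981) that were not called.

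HTB4 was the 1 histone gene called lower in ada2a. Its signal was 8685, 6434 and 6519 in Col-0 and 6363, 4971 and 4857 in ada2a. The lowest Col-0 library was just above the highest ada2a library, and the change was -0.42 ± 0.16 (adjusted p = 0.0488). The adjusted p was 0.246 without Col-0 replicate 1 and 0.0523 without its replicate 2. It was 0.133 when ada2a replicate 2 was left out and 0.177 when replicate 3 was, so each of these 4 libraries decided the call. Without ada2a replicate 1 there were 2 genes called lower. HTB3 shows how far the correction reaches: its change was -0.12 in ada2a and -0.04 in spc, neither called, and -1.27 (adjusted p = 4.19e-05) and -1.301 (adjusted p = 1.12e-05) after it.

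Single libraries carried part of the counts. The number called higher in ada2a was 10 without ada2a replicate 3, which has the lowest slope of its genotype (-1.28), and 15 without Col-0 replicate 1. In spc it was 12 without spc replicate 2, whose slope was -1.49, and 19 without Col-0 replicate 1. Without spc replicate 1 there was 1 gene called lower. In ada2a the call of HTR5 (0.83, adjusted p = 0.0252) was lost without replicate 1 or 2 of Col-0 or replicate 2 or 3 of ada2a, with adjusted p from 0.0523 to 0.154. The H4 gene AT2G28740 was called higher in ada2a (0.82) and in spc (0.88) and lower after the correction (-0.73 in each), and HTR1 likewise in ada2a (0.54 and -0.39). Without Col-0 replicate 1 these 3 calls were lost (adjusted p = 0.0803, 0.0526 and 0.0526), as they were in ada2a without its replicate 3 (0.13 for AT2G28740 and 0.0777 for HTR1), in ada2a without its replicate 2 for AT2G28740 (0.06) and in spc without its replicate 2 (0.1).

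**Figure D3:**
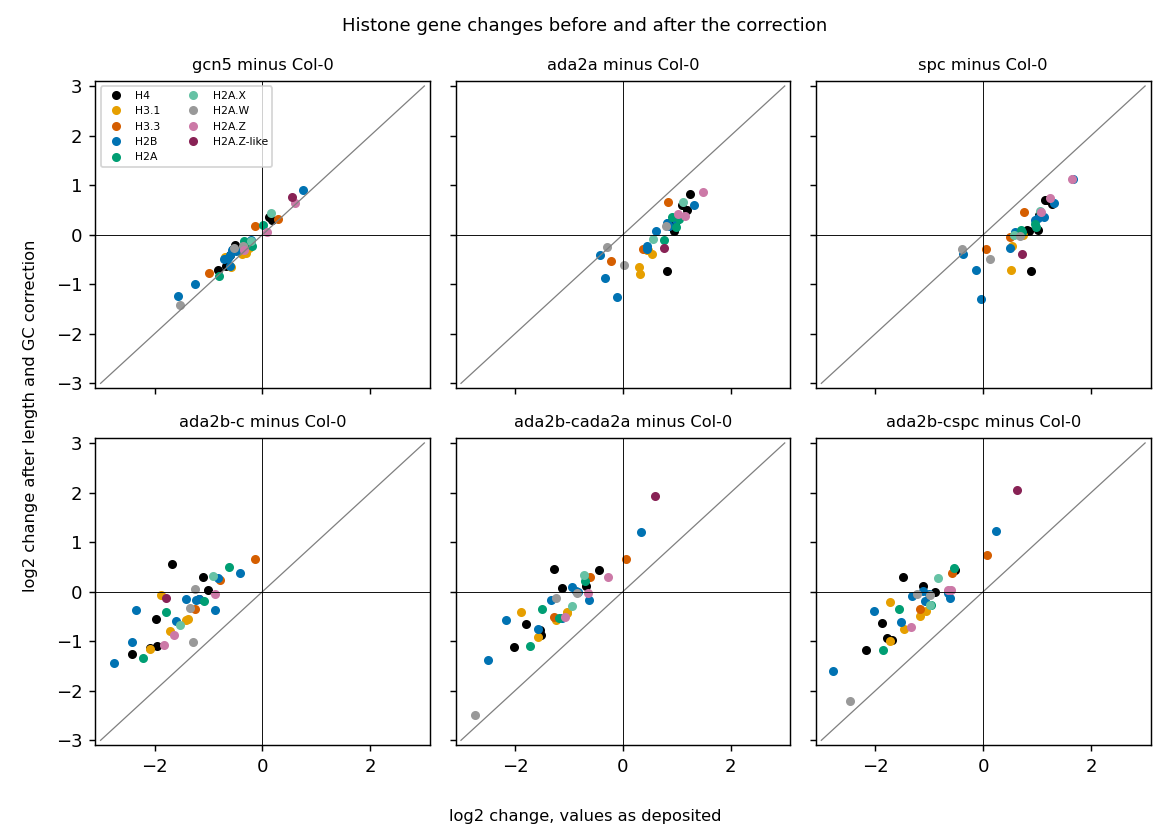
Change of each tested histone gene against Col-0 on the values as deposited (x axis, log2) and after the length and GC correction (y axis, log2), 1 panel for each of the 6 mutants, coloured by class, with a line of equality. Most points of ada2b-c and both double mutants lie left of 0 and above the line, most of ada2a and spc lie right of 0 and below it, and those of gcn5 lie near it.

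Tissue markers differed in these mutants too. The 5 flower markers summed to 1915 to 2087 in ada2a and 2165 to 2392 in spc, against 809 to 1051 in Col-0, with 3 of 5 called higher in each. The 3 shoot meristem markers summed to 2156 to 3758 and 2173 to 3866, against 753 to 1020, where STM was the 1 of 3 called (1.62 and 1.69). The mitosis markers summed to 1716 to 1891 and 2079 to 2307, against 1317 to 1612, with CDKB1;1 higher by 1.18 in ada2a and 1.40 in spc, and by 1.28 and 1.44 after the correction. It was the 1 of 4 called higher in each, KNOLLE was lower in ada2a (-0.99, adjusted p = 0.0466), and the list's median change was -0.18 in ada2a and 0.03 in spc. Of 4 leaf markers 1 was higher and 0 lower in ada2a, and 0 higher and 2 lower in spc. On the values as deposited, 0 of the 22 replication genes were higher and 5 lower in ada2a, beside 19.8% and 19.9% of all genes. Among the 5 were ORC1B at -1.26, CDT1A at -1.23, DPA at -1.09 and FEN1 at -0.78. In spc 1 was higher and 5 lower, beside 21.7% and 25.7% of all genes, and CDC45 stood at 0.98. Both mutants differ from Col-0 in length slope, and the part of that trend in these counts was not tested. The part of the tissue markers in the histone differences was not tested.

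Set directly against each other, spc and ada2a had like length slopes. Of 39 histone genes 0 were called higher and 0 lower, with 1 at an unadjusted p under 0.05, against 0.657% and 0.378% of all genes called. The median change was 0.07, with -0.04 over all genes. After the correction again 0 were called, against 1.76% and 1.02% of all genes, with 7 at an unadjusted p under 0.05. Changes of single genes ran from -0.26 to 0.69, so a lack of calls does not show that the mutants were alike.

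The double mutants were lower than Col-0 in most histone genes on the values as deposited, as ada2b-c was. In ada2b-cada2a 29 were called lower and 0 higher (median -1.12), against 32.1% and 30.4% of all genes. In ada2b-cspc 30 were called lower and 0 higher (median -1.12), against 33.3% and 31.4%. After the correction 17 were lower and 3 higher in ada2b-cada2a, against 26.8% and 31.6% of all genes, and 15 lower and 4 higher in ada2b-cspc, against 28.3% and 32.7%. With equal totals, which moved the median of all genes by 0.35 and 0.39, there were 24 lower and 3 higher, against 22.7% and 37.8%, and 26 lower and 3 higher, against 22.9% and 39.4%.

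Genes lower in all 4 fits numbered 9 in ada2b-cada2a and 8 in ada2b-cspc, beside 11.9% of all genes in each. They were HTR1, HTR2, HTR9, HTR13, HTR4, HTB1, HTB5 and HTA12, and in ada2b-cada2a also HTB3. The 2 largest falls were those of HTA12 and HTB5. HTA12 had signals of 93.5, 118 and 119 in ada2b-cada2a and 119, 143 and 134 in ada2b-cspc, against 643 to 867 in Col-0, with changes of -2.73 ± 0.20 (limma, adjusted p = 6.39e-10) and -2.47 ± 0.20 (adjusted p = 2.37e-09). HTB5 had 449, 476 and 450 and 390, 363 and 378, against 2388 to 2767, with changes of -2.50 (adjusted p = 1.75e-08) and -2.78 (adjusted p = 3.31e-09). In no library of either double mutant did these genes reach the Col-0 range.

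HTA4, a divergent H2A.Z-like gene, went the other way after the correction. On the values as deposited it was 0.59 above Col-0 in ada2b-cada2a (adjusted p = 0.171) and 0.63 in ada2b-cspc (adjusted p = 0.142). After the correction it was higher by 1.94 (adjusted p = 1.91e-06) and 2.05 (adjusted p = 7.72e-07). HTR8 stood at 0.06 and 0.08 and, after the correction, at 0.66 and 0.74.

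All 4 leaf markers were called lower in both double mutants against Col-0, with median changes of -1.48 and -1.81. Of all genes, 32.1% and 33.3% were called lower. All 5 flower markers were lower too (medians -3.17 and -3.45), as was 1 of 3 shoot meristem markers and 1 of 4 mitosis markers in each. Their part in the histone differences was not tested.

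Set against ada2b-c, whose length slope is closer to theirs than that of Col-0 is, most histone genes of the double mutants had small positive changes, and few were called on the values as deposited. Of 39 changes 32 were positive for ada2b-cada2a and 35 for ada2b-cspc. In ada2b-cada2a 7 of 39 were called higher than in ada2b-c and 1 lower (median 0.36), against 9.45% and 6.2% of all genes and a median of 0. In ada2b-cspc 4 were higher and 1 lower (median 0.23), against 5.88% and 3.29% and a median of 0. After the correction the counts were 6 and 1, against 12.3% and 11.3% of all genes, and 5 and 1, against 8.01% and 7.42%. With the slope covariate 14 were higher and 1 lower in ada2b-cada2a, against 17.9% and 12% of all genes, and 7 and 1 in ada2b-cspc, against 12.6% and 8.88%. With only the compared groups in the fit 20 were higher in ada2b-cada2a and 9 in ada2b-cspc, where 19.7% and 15.7% of all genes were higher and 18.3% and 15.9% lower. Both comparisons share the ada2b-c libraries. The genes called in all 4 fits were HTA4, HTA8, HTB6 and HTB7, higher in both, HTA11, higher in ada2b-cada2a, and HTA12, lower in both. They make 5 higher and 1 lower in ada2b-cada2a, beside 6.69% and 5.37% of all genes, and 4 higher and 1 lower in ada2b-cspc, beside 4.5% and 2.61%.

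HTA4 had the largest rise. Its signal was 180, 87.6 and 99.9 in ada2b-c. In the double mutants it was 508, 789 and 566 with ada2a and 590, 558 and 745 with spc. All 6 double mutant libraries were above all ada2b-c libraries, with changes of 2.38 ± 0.37 (limma, adjusted p = 0.000167) and 2.42 ± 0.37 (adjusted p = 0.000203). The gene has 3 exons and lies at chr4:7884516-7885982, where the annotation places AT4G13564 on the opposite strand. No source used here says whether the libraries keep strand, so reads of the overlapping genes cannot be told apart. In the other genotypes HTA4 stood at 299, 459 and 484 in Col-0 and 523, 540 and 730 in gcn5. It had 479, 710 and 971 in ada2a and 336, 1148 and 779 in spc. On these deposited values ada2b-c was lowest of all. After the correction the log2 levels of HTA4 in ada2b-c were 8.85, 7.78 and 7.88. Those of Col-0 (8.13, 8.51 and 8.29) lay within the range of ada2b-c. The levels of ada2b-c also overlapped those of ada2a (7.96, 8.04 and 8.14) and spc (7.54, 8.01 and 8.21).

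HTA8 had 109, 150 and 168 in ada2b-c. With ada2a added it had 359, 366 and 367, and with spc added 317, 250 and 312. The groups did not overlap, and it rose by 1.37 ± 0.29 (adjusted p = 0.00266) and 1.05 ± 0.29 (adjusted p = 0.0247). HTB6 had 35.4, 39.7 and 39.3, then 76.6, 85.7 and 81.9, and 83.2, 72.4 and 92.0. It rose by 1.07 ± 0.23 (adjusted p = 0.00331) and 1.09 ± 0.23 (adjusted p = 0.00448), with every double mutant library above ada2b-c. HTB7 had 89.2, 45.7 and 37.3 in ada2b-c, against 100, 152 and 113 with ada2a added and 120, 127 and 93.9 with spc added. Its changes were 1.15 ± 0.32 (adjusted p = 0.0166) and 1.06 ± 0.32 (adjusted p = 0.0384), and ada2b-c replicate 1 came close to the double mutants.

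HTA12 fell further. It had 297, 278 and 320 in ada2b-c, against 93.5 to 119 in ada2b-cada2a and 119 to 143 in ada2b-cspc. The changes were -1.44 ± 0.20 (adjusted p = 4.88e-05) and -1.17 ± 0.20 (adjusted p = 0.000579), and -1.47 and -1.20 after the correction. HTA12 encodes an H2A.W and lies at chr5:575225-577216 on the plus strand. HTB10 lies inside it on the opposite strand and takes in 31.7% of the stretches of 100 bases of its transcript, so without strand reads there could come from either gene. The other H2A.W genes did not follow on the values as deposited. HTA7 overlapped between ada2b-c and both double mutants. HTA6 was higher in ada2b-cada2a by 0.50 (limma, adjusted p = 0.0181) and stood at 0.36 in ada2b-cspc (adjusted p = 0.117). Its call in ada2b-cada2a was lost after the correction (0.29, adjusted p = 0.406) and with equal totals (0.39, adjusted p = 0.222).

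The calls of HTA4, HTB6 and HTA12 in both double mutants and of HTA8 in ada2b-cada2a held when any 1 library was left out. The rise of HTA8 in ada2b-cspc did not pass without ada2b-c replicate 1 (adjusted p = 0.132), ada2b-c replicate 2 (0.0584), ada2b-cspc replicate 1 (0.0982) or ada2b-cspc replicate 3 (0.0792). That of HTB7 did not pass without ada2b-c replicate 2 or replicate 3 in either double mutant (adjusted p from 0.0729 to 0.206), without ada2b-cada2a replicate 2 (0.0864), or without ada2b-cspc replicate 1 (0.126) or replicate 2 (0.143). HTA11 (0.74, adjusted p = 0.0191 in ada2b-cada2a) did not pass without ada2b-c replicate 1 (0.074) or 3 (0.0508) or ada2b-cada2a replicate 1 (0.0646) or 2 (0.0761), HTA6 did not pass without the same 4 libraries (adjusted p from 0.0568 to 0.0793), and HTR1 (0.48, adjusted p = 0.0485) did not pass without any 1 of the 6. The number called higher in ada2b-cada2a was 4 without ada2b-c replicate 1 or ada2b-cada2a replicate 1 and 3 without ada2b-c replicate 3 or ada2b-cada2a replicate 2, and in ada2b-cspc it was 2 without ada2b-c replicate 2 or ada2b-cspc replicate 1.

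**Figure D4:**
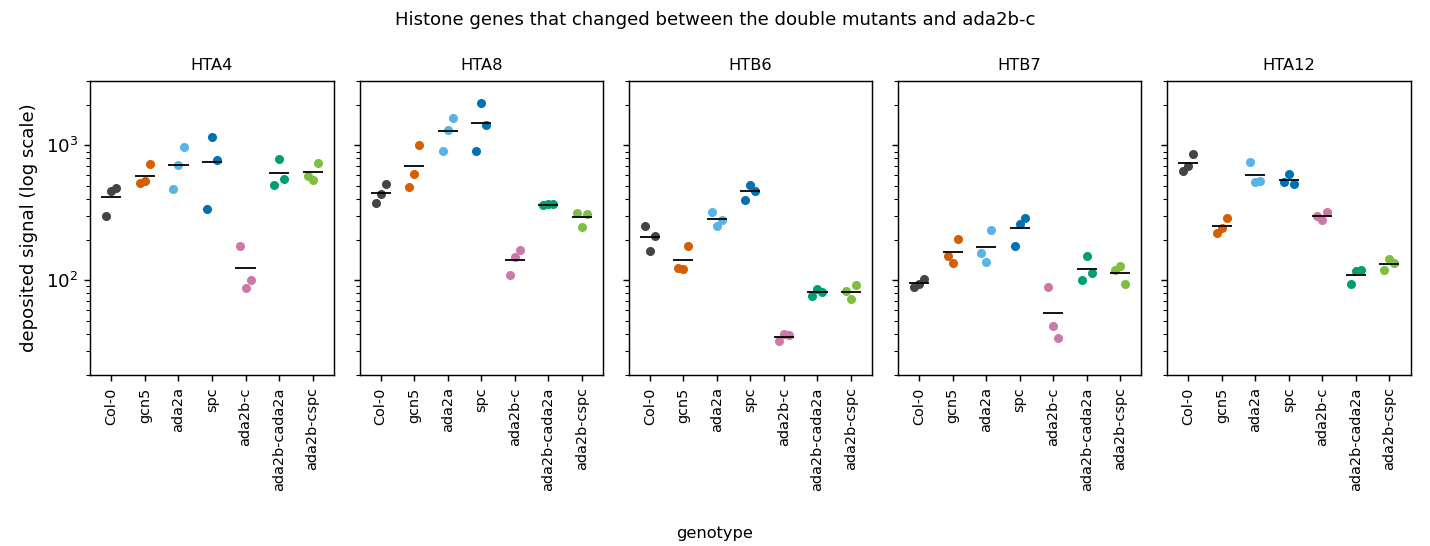
Deposited signal (log axis) of HTA4, HTA8, HTB6, HTB7 and HTA12 in each of the 3 libraries of all 7 genotypes (points), with a bar at each genotype mean. HTA4, HTA8, HTB6 and HTB7 are higher in both double mutants than in ada2b-c, and HTA12 is lower.

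Some related genes were called in the same comparisons, for which the shares of all genes called are those given above. Of the 22 replication genes 4 were higher in ada2b-cada2a than in ada2b-c (CDC6A by 0.88, PCNA2 by 0.80, CDC45 by 0.79 and TK1A by 0.53) and 0 lower, and in ada2b-cspc 0 were called in either direction. H1.3 was lower by 1.15 in ada2b-cada2a, and CDKB1;1 was higher by 0.87. Of 3 shoot meristem markers 1, STM, was called higher in each double mutant (0.91 and 0.85). Flower markers were called higher in 4 of 5 genes in ada2b-cada2a and in 1 of 5 in ada2b-cspc, and summed to 219 to 232 and 134 to 166, against 76.1 to 91.5 in ada2b-c. Shoot meristem markers summed to 311 to 338 and 291 to 359, against 167 to 191. Their part in the histone differences was not tested.

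Genes with and without the octamer were both among the called members. The counts here are on the values as deposited, which carry the length trend. Of the 9 genes with the octamer, 1 was lower in gcn5 (median -0.31), 9 in ada2b-c (-1.38), and 8 were higher in both ada2a and spc. Of the 30 tested genes without it, 11 were lower in gcn5 (-0.53) and 27 in ada2b-c (-1.47). Of these 30, 17 and 21 were higher in ada2a and spc. Of all genes, 18.7% were lower in gcn5 and 33.6% in ada2b-c, and 19.8% and 21.7% were higher in ada2a and spc. These counts carry no test of the motif.

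The make-up of the H3 and H2A signal differed between genotypes, as a description with no test. H3.1 genes gave 21.5%, 22.0% and 20.7% of the H3.1 plus H3.3 signal in the Col-0 libraries, 21.4% ± 0.69 (SD, n = 3). In ada2b-c they gave 12.9%, 12.6% and 14.3%, 13.3% ± 0.92, below every Col-0 library. The share was 15.7% ± 1.40 in ada2b-cada2a, 13.98% ± 0.81 in ada2b-cspc, 20.3% ± 1.53 in gcn5, 21.1% ± 2.23 in ada2a and 23.0% ± 2.74 in spc. After the correction it was 23.9% ± 0.29 in Col-0, 14.7% ± 0.96 in ada2b-c, 16.3% ± 1.201 and 14.6% ± 0.47 in the double mutants, 19.8% ± 2.34 in gcn5, 17.4% ± 4.09 in ada2a and 21.4% ± 4.37 in spc. The 3 genotypes with ada2b-c were lower than Col-0 both ways. So were the means of gcn5 and ada2a, whose libraries overlapped Col-0 on the values as deposited. After the correction every library of gcn5 and of ada2a was below every Col-0 library.

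The H2A.Z genes HTA8, HTA9 and HTA11 gave 31.3% ± 0.58 of the H2A signal in Col-0 and between 35.8% ± 1.51 (ada2a) and 37.3% ± 1.38 (ada2b-cada2a) in the mutants, with gcn5 at 35.8% ± 1.93. After the correction Col-0 stood at 33.9% ± 1.43, ada2b-c at 33.8% ± 0.33 and spc at 40.6% ± 3.72, so the excess in ada2b-c was not seen there. Canonical H2A gave 31.8% in Col-0, 27.2% in gcn5 and 25.7% in ada2b-c. H2A.W gave 18.4% in Col-0, 14.3% in gcn5, 12.6% in ada2a and 12.9% in spc.

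**Figure D5:**
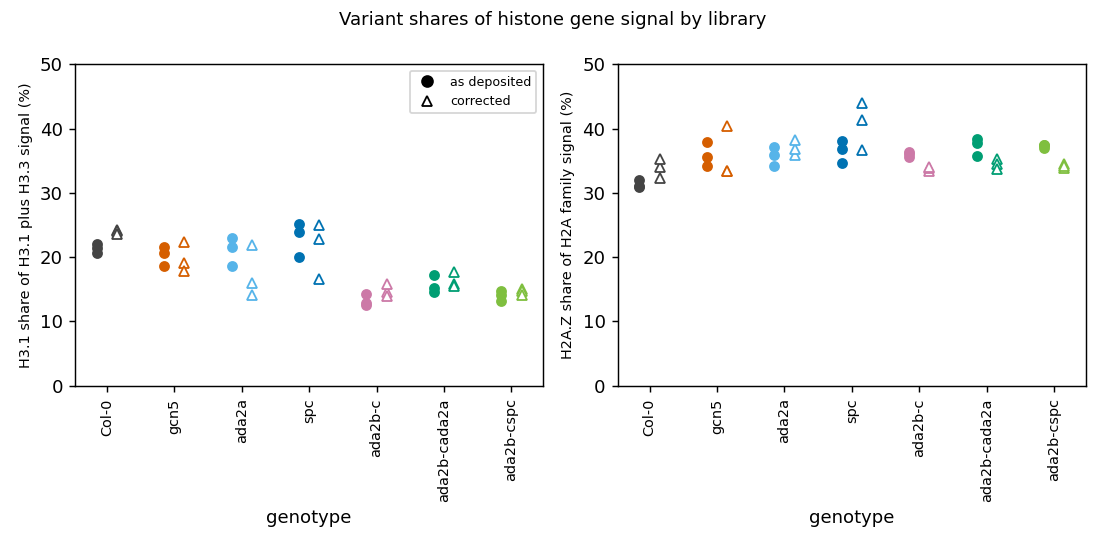
Share of the H3 signal from H3.1 genes and share of the H2A signal from H2A.Z genes (y axes, percent) in each library by genotype, as filled circles on the values as deposited and as open triangles after the length and GC correction. The H3.1 share of ada2b-c (mean 13.3%) and of the double mutants (15.7% and 13.98%) lies below that of Col-0 (21.4%).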

How the data were processed

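Total RNA of 21 libraries was sequenced, per the labels. The authors used bcl2fastq, HISAT2 and edgeR with the TAIR10 genome, per the submitters' processing notes, and deposited 1 signal value per gene and library. The deposited signal is not whole-numbered, so no count model was used, although the plan had allowed for counts. No source used here gives the annotation, the counter or the strandedness, and depth is unknown.

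Genes with a mean of at least 1 (23290) were put on the log2 scale after adding 1 and fitted by limma 3.58.1 (R 4.3.3) with 7 genotype means, a variance trend and Benjamini-Hochberg adjustment within each of 9 comparisons. 6 of these share the Col-0 libraries. For the length and GC correction, a spline over both (5 degrees of freedom) was fitted per library to 18559 genes with a mean of at least 30 and its curve was taken off that library. Lengths, GC content, overlaps and promoters came from RefSeq TAIR10.1. The code was tested on simulated data. Plots used matplotlib 3.10.9 (Python 3.11.15).

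Values in every library are given for the member of each class with the highest mean signal per kb and for the 2 called members with the largest rise and the 2 with the largest fall in a comparison. From related lists up to 4 called genes with the largest changes are named, and others were chosen after their values were seen. Members, lists, tests and alternatives were chosen with earlier results of these data known. Alternatives were no filter, a pseudocount of 0.1, equal totals, the correction, the slope covariate, replicate number as a block, a fit of the compared groups alone, and each library left out in turn.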

Additional observations from a re-analysis of the deposited data

How the results depend on the processing

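Counts are of the 39 histone genes, and the cause of each change was not tested. With the slope covariate, gcn5 against Col-0 had 8 genes higher, ada2b-c 8 higher and 14 lower, and ada2a 2 higher. There were 4 higher and 1 lower in spc, 10 and 12 in ada2b-cada2a, and 9 and 12 in ada2b-cspc. Of 23290 genes tested, this fit called 5234 higher in gcn5, 4081 higher and 5922 lower in ada2b-c, and 2292 higher in ada2a. It called 1728 higher and 1418 lower in spc, 3993 and 5639 in ada2b-cada2a, and 4109 and 5850 in ada2b-cspc. The double mutants had 14 and 7 histone genes higher than ada2b-c. After the length and GC correction the counts were 5 higher in gcn5, 3 higher and 19 lower in ada2b-c, 8 higher and 9 lower in ada2a, 9 higher and 5 lower in spc, 3 higher and 17 lower in ada2b-cada2a, and 4 higher and 15 lower in ada2b-cspc. With equal totals they were 3 higher and 5 lower in gcn5, 1 higher in ada2b-c, and 12 higher and 5 lower in ada2a. They were 18 higher and 2 lower in spc, and 3 higher in each double mutant. Beside the 1 gene in ada2b-c, 9591 of 23216 genes were called higher. With only the compared groups in the fit, 7 were lower in gcn5, 0 lower in ada2a, 10 higher in spc, 1 higher in ada2b-cspc, and 20 and 9 higher in the double mutants than in ada2b-c. With no filter 0 were lower in ada2a. Counts over all genes are not given for no filter, for the compared groups alone against Col-0, or with 1 library left out.

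Leaving out 1 library at a time gave 0 to 1 higher and 7 to 23 lower in gcn5, 34 to 36 lower in ada2b-c, 10 to 28 higher and 0 to 2 lower in ada2a, 12 to 31 higher and 0 to 1 lower in spc, 28 to 29 lower in ada2b-cada2a, 29 to 30 lower in ada2b-cspc, and 3 to 6 and 2 to 3 higher in the double mutants than in ada2b-c.

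The labels share replicate numbers but do not say that they pair libraries, and in no comparison did all same-numbered libraries correlate above 0.1. In gcn5 the lowest such correlation was 0.087, and 5 of 6 libraries correlated best with their own number. With the replicate block 1 gene was higher in gcn5 and 1 lower in spc, and the other counts stayed within 1.5 times.

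The H3.1 share per length was 28.6% in Col-0. It was 18.0% in ada2b-c, 21.02% and 18.9% in its double mutants with ada2a and spc, 27.1% in gcn5, 28.9% in ada2a and 31.0% in spc, and after the correction 23.9% in Col-0, 14.7% in ada2b-c and 17.4% in ada2a. The H2A.Z share per length was 31.9% in Col-0, 37.3% in ada2b-c and 38.0% in ada2b-cspc, and after the correction 40.6% in spc, 33.9% in Col-0, 33.8% in ada2b-c, and 34.5% and 34.2% in its double mutants.

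Among single genes these changed sign: HTA8 in ada2b-c with the covariate (0.16), AT2G28740 after the correction (0.56 in ada2b-c, -0.73 in ada2a and -0.73 in spc), HTR5 in ada2b-c after the correction (0.23) and with the covariate (1.09, called higher), and HTR1 in ada2a after the correction (-0.39). With 1 library left out, HTB3 ran from -0.25 to 0.0061 in ada2a and from -0.25 to 0.13 in spc, and HTR8 from -0.012 to 0.17 in ada2b-cada2a. None of these 3 was called on the values as deposited. After the correction, and with the covariate, HTB3 was called lower in ada2a and in spc, and HTR8 higher in ada2b-cada2a. Depth is unknown, so what a low signal can show, as of HTB8, cannot be stated.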
